A study of Mus musculus with 32 samples.

Results

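Prx, Pmp22, Pmp2, Ncmap and Cldn19 are 5 genes best known from the myelin that Schwann cells wrap around peripheral axons. They were picked by symbol, as the rows of the gene table whose Ensembl identifiers carry these symbols, and are 5 of its 55938 genes. Each was followed through 32 RNA-seq libraries from mouse lumbar spinal cord, and the single libraries are shown because a few of them stood apart.

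Peripheral myelin is made by Schwann cells and central myelin by oligodendrocytes, and the border between them lies where the nerve roots meet the cord. Schwann cells of the roots switch on a myelin program under the transcription factors Sox10 and Egr2. Periaxin (Prx) links the Schwann cell membrane to its cytoskeleton, peripheral myelin protein 22 (Pmp22) and myelin protein P2 (Pmp2, a fatty acid binding protein) are part of compact myelin, Ncmap is a small membrane protein of the non-compact parts, and claudin-19 (Cldn19) forms tight junctions there.

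All mice carried the genotype that the labels spell Aldhl1l-CreER;Rpl22-HA, in which an astrocyte promoter drives an inducible recombinase and the ribosomal protein Rpl22 carries an HA tag. The groups were females and males without fracture, or at 3, 5 or 7 weeks after a fracture that models complex regional pain syndrome. Trap is the RNA pulled down with anti-HA antibody from homogenised lumbar cord, with 3 libraries for each sex and state (24 in all), and Input is RNA from the whole homogenate, with 1 library for each sex and state (8 in all). The labels do not say that libraries of a group came from separate animals, so the tests rest on the variation from library to library, and some of that may be technical. In whole-tissue RNA, fewer cells of a type and less RNA per cell cannot be told apart.

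Library totals ran from 17124018 to 23189205 counts in Trap and from 17981112 to 22907873 in Input. A level of 1 CPM (counts per 1e6 counts, scaled by TMM factors) stood for 15.6 to 21.3 counts in Trap and 23 to 28.8 in Input. The 10 astrocyte genes listed for comparison were all higher in Trap than in Input. A set of 3 libraries stood apart: Prx was at 4.55 CPM in Trap female 7 weeks replicate 1, 5.48 in Trap male 5 weeks replicate 3 and 4.6 in Input female 7 weeks replicate 1, and at no more than 1.46 in the other 29. These libraries were noticed in the data and not named by any label, so each is described singly and results are given with and without it. Leaving them out takes away the highest values of Prx, so its values without them are a description and no independent test. The Trap and Input libraries of females at 7 weeks share the number 1, but the labels do not say that they share an animal.

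The genes lie on 4 chromosomes (GRCm38, GENCODE M21). Prx (ENSMUSG00000053198) spans chr7:27499324-27520214 on the plus strand. Pmp22 (ENSMUSG00000018217) spans chr11:63128982-63159547 on the plus strand. Pmp2 (ENSMUSG00000052468) spans chr3:10179851-10183929 on the minus strand. Ncmap (ENSMUSG00000043924) spans chr4:135369576-135398227 on the minus strand, and Cldn19 (ENSMUSG00000066058) spans chr4:119255414-119262438 on the plus strand. Counts were summed over all transcripts of a gene, 5 for Pmp22, so they do not tell its start sites apart. Pmp2 overlaps the predicted gene Gm37389, which had 0 counts in all 32 libraries.

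The RefSeq promoter table (GRCm38.p6) held 4 of the 5 genes, with 1 start for Prx, 4 for Pmp22, 2 for Ncmap and 2 for Cldn19; Pmp2 is named only. The 250 bases before the start of Prx, whose level set the 3 libraries apart, and before the first start of Pmp22, the most abundant of the 5, are shown to set these genes side by side. They are chr7:27499074-27499323 and chr11:63128732-63128981, both on the plus strand and written 5′ to 3′.
Prx: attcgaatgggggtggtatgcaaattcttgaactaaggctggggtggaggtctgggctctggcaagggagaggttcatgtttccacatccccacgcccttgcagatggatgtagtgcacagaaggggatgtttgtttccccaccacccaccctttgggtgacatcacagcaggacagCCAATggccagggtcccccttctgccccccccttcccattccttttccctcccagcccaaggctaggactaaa
Pmp22: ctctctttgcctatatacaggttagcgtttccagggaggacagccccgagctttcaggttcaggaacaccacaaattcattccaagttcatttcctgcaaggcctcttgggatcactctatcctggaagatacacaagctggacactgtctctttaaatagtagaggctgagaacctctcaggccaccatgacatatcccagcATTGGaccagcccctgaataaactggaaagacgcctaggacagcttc
In all, 3 motifs were searched on both strands of the 9 windows of these genes, all chosen after the sequences had been seen. The SOX core ACAAAG was in 0 of the 9 windows and in 16.5% of the 32851 windows of the table. The EGR site GCGTGGGNG was in 0 of the 9 and in 1.65% of all. The CCAAT box (CCAAT, or ATTGG on the other strand) was added last, after those letters had been seen in the Prx window and the first searches had found nothing. It was in 4 of the 9 windows and in 33.8% of all, and capitals mark it above. Because of how it was chosen, its count is shown only to explain the capitals.

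Pmp22 was by far the most abundant of the 5 genes. Per kilobase of exon, its median level was 24.4 CPM in Trap and 32.4 in Input, against 0.116 and 0.0913 for Prx, 0.274 and 0.101 for Pmp2, 0.0683 and 0.473 for Ncmap, and 0.135 and 0.0186 for Cldn19. Apart from Pmp22, no gene of the 5 had a median of 1 CPM per kilobase in either fraction. The 5 genes did not behave as a single set under the label of Schwann cell myelin genes from nerve roots, and their source was not tested. Pmp22 was present at 44.2 CPM or more in every library, also where Ncmap or Cldn19 had no counts. The floor of detection, 3 counts, was 0.141 to 0.192 CPM in Trap and 0.104 to 0.13 in Input.

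**Figure D1:**
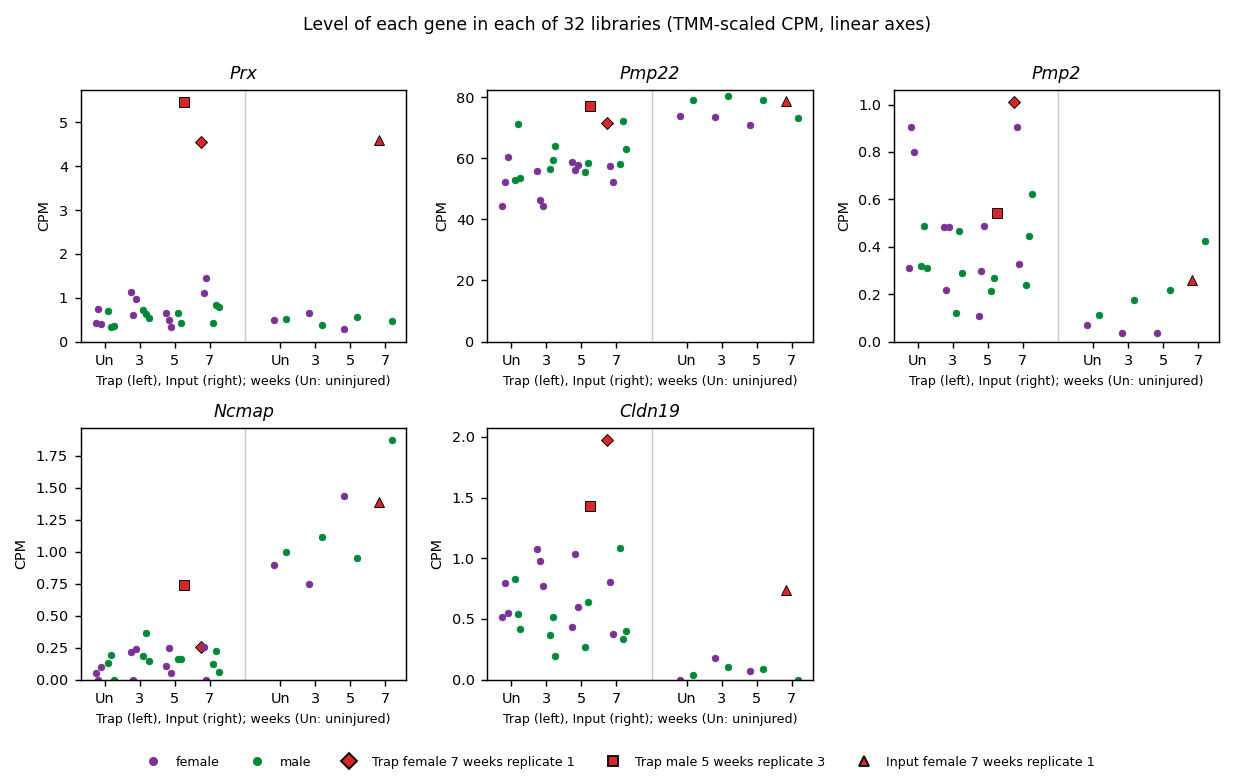
Level of each of the 5 genes in each of the 32 libraries, in CPM on linear axes. Trap libraries are on the left of each panel and Input on the right, ordered by weeks after fracture (Un, uninjured), with red marks for the 3 libraries with high Prx. Prx is at 4.55 to 5.48 CPM in those 3 and at no more than 1.46 elsewhere, while Pmp22 spreads over all libraries.

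The Prx values of every library show how far these 3 stood from the rest. In Trap from uninjured females it was at 0.414, 0.736 and 0.401 CPM in replicates 1, 2 and 3, and from uninjured males at 0.703, 0.341 and 0.361. At 3 weeks the females had 1.13, 0.595 and 0.962 CPM and the males 0.728, 0.62 and 0.527. These 2 states overlapped, and all of their libraries were near 1 CPM or below. At 5 weeks the females had 0.651, 0.494 and 0.325 CPM and the males 0.643, 0.428 and 5.48. At 7 weeks the females had 4.55, 1.11 and 1.46 CPM and the males 0.421, 0.833 and 0.793. One library stood far above the others at each of these times.

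Set against the median of the other 22 Trap libraries (0.631 CPM), Prx was 7.21 times as high in Trap female 7 weeks replicate 1 and 8.67 times in Trap male 5 weeks replicate 3. The values rest on 90 and 111 counts, with exact 95% Poisson intervals of 3.66 to 5.6 and 4.51 to 6.6 CPM. These intervals, like the floors, cover counting error only. In Input, Prx was at 4.6 CPM (106 counts, 3.77 to 5.56) in female 7 weeks replicate 1. The other Input libraries held 0.503, 0.641 and 0.287 CPM in females without fracture, at 3 and at 5 weeks, and 0.516, 0.382, 0.562 and 0.468 in males without fracture, at 3, 5 and 7 weeks. Their median was 0.503 CPM, so the high Input library was 9.15 times above it.

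Cldn19 was also higher in each of these 3 libraries than in the rest of its fraction. It was at 1.97 CPM (39 counts, 1.4 to 2.7) in Trap female 7 weeks replicate 1 and 1.43 (29 counts, 0.958 to 2.06) in Trap male 5 weeks replicate 3, which are 3.63 and 2.63 times the median of the other Trap libraries, less than for Prx. The other 22 Trap libraries ran from 0.192 to 1.08 CPM with a median of 0.544, and the interval of the male library overlaps their upper end. In Input it was at 0.738 CPM (17 counts) in female 7 weeks replicate 1 and at 0 to 0.178 (0 to 5 counts) in the others.

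Pmp22 differed less in these libraries than Prx and Cldn19. It was at 71.4 CPM in Trap female 7 weeks replicate 1 and 77 in Trap male 5 weeks replicate 3, which are 1.25 and 1.35 times the median of the other Trap libraries (57 CPM). The value of 77 CPM was the highest in Trap. Trap male 7 weeks replicate 2, at 72.3 CPM, and Trap male uninjured replicate 2, at 71.1, were about as high with Prx at 0.833 and 0.341 CPM. In Input it ran only from 71 to 80.5 CPM, and the library with high Prx, at 78.6, lay inside that range.

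Ncmap and Pmp2 rested on few counts. Ncmap was highest of Trap in male 5 weeks replicate 3, at 0.74 CPM (15 counts), but was at 0.253 (5 counts) in female 7 weeks replicate 1, within the 0 to 0.362 of the other Trap libraries. In Input it ran from 0.747 to 1.87 CPM, the highest being male 7 weeks replicate 1, and the library with high Prx was at 1.39. Pmp2 had 2 to 20 counts in Trap and 1 to 10 in Input. Its highest Trap value was 1.01 CPM in female 7 weeks replicate 1, next to 0.905 in female 7 weeks replicate 2 and female uninjured replicate 2, where Prx was at 1.11 and 0.736.

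**Figure D2:**
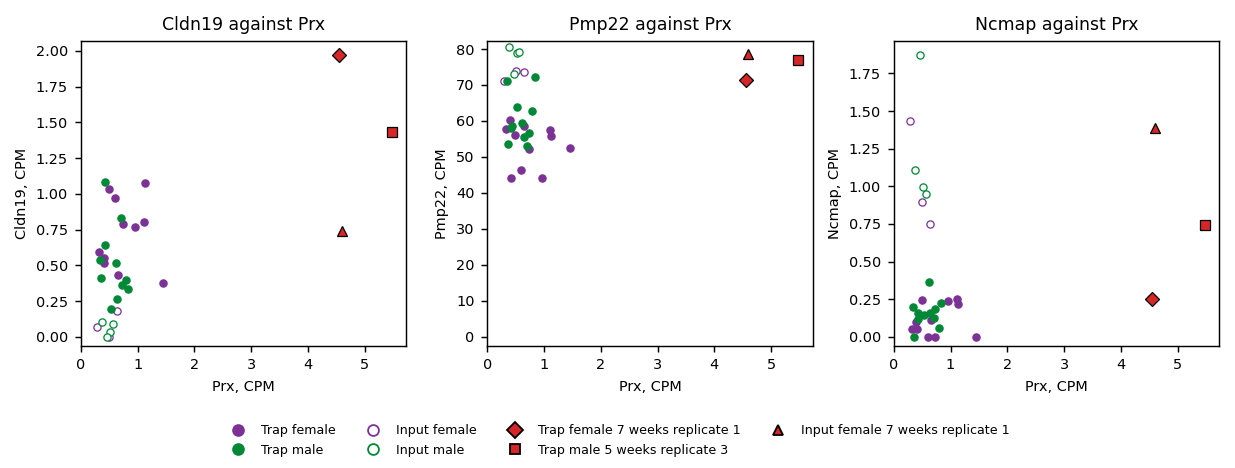
Cldn19, Pmp22 and Ncmap against Prx in each library, in CPM on linear axes, with filled circles for Trap, open circles for Input and red marks for the 3 libraries with high Prx. Cldn19 is highest of its fraction in these 3, whereas libraries with Prx at 1.46 CPM or below cover the range of Pmp22 from 44.2 to 80.5 CPM.

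Of 13 further genes listed for Schwann cells, 4 were above all of the other 22 Trap libraries in female 7 weeks replicate 1, 3 in male 5 weeks replicate 3, and 4 were above all of the other 7 Input libraries in the Input library, 1 of them (Dhh) in each of the 3. The share of all genes that lay above the other libraries in this way was not computed, so these counts have no background beside them. Dhh, a signal that Schwann cells send to the nerve sheath, was at 0.354 and 0.987 CPM in the 2 Trap libraries and at 0 to 0.128 in the other 22, and at 0.347 in the Input library against 0 to 0.243. Sostdc1 was at 0.253 and 0.444 CPM against 0 to 0.241 in Trap, but at 0.564 within 0.13 to 0.676 in Input. Over all 32 libraries together Dhh had 48 counts and Sostdc1 118, so these margins rest on few counts, near the floor of detection. Scn7a, a sodium channel gene, was above the others in both female 7 weeks libraries, at 0.86 CPM in Trap against at most 0.626 and at 4.08 in Input against at most 3.52. Gldn (0.557 CPM against at most 0.509) was above the range in the female Trap library only, Gas2l3 (1.23 against at most 1.1) in the male Trap library only, and Art3 (9.94 against at most 8.94) in the Input library only. Egr2, at 0.202 and 0.395 CPM, lay within the 0 to 0.566 of the other Trap libraries, and was at 0.434 in the Input library against 0.0426 to 0.258. Drp2, the partner of periaxin, was at 94.9 and 100 CPM within 65.3 to 110. The summed level of the list ranked 5 and 11 of 24 in the 2 Trap libraries, and 1 of 8 in the Input library. In Trap that sum is mostly Drp2, Cdh19 and Adgrg6, all higher in Trap than in Input, so its rank says little of the other genes. Cdh19 was at 89.9 and 69.1 CPM within 45.4 to 95.3, and Adgrg6 at 45.6 and 40.6 within 25.8 to 60.3.

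Markers of other cells were set beside these values. Of 10 fibroblast and meningeal genes, 4 were above all of the other 22 in both Trap libraries: Dcn at 7.08 and 16.3 CPM against 2.06 to 4.35, Lum at 0.961 and 1.28 against 0 to 0.389, Col3a1 at 1.62 and 3.6 against 0.188 to 1.34, and Col1a1 at 11 and 12.4 against 4.23 to 9.31. The other 6, Col1a2, Fbln1, Pdgfra, Igf2, Slc6a13 and Apod, lay within the range of the other 22, Col1a2 at 255 and 230 CPM within 150 to 312. In the Input library Dcn (8.85 CPM against 5.74 to 6.81) and Lum (0.911 against 0.323 to 0.641) were above the other 7, but Col3a1 (2.3 within 1.55 to 2.6) and Col1a1 (3.99 within 3.17 to 5.66) were not. The summed list, which Col1a2, Apod and Fbln1 dominate, was 637 and 598 CPM against 406 to 671. The 12 oligodendrocyte genes summed to 1333 and 1326 CPM against 1241 to 1731, ranks 21 and 22 of 24. The 11 primary afferent neuron genes summed to 15.2 and 15.8 CPM against 9.14 to 22.4, and Scn10a, Trpv1 and Mrgprd were at 0 in both. The 9 listed myelin genes that both cell types share, among them Mbp, summed to 2421 and 2230 CPM against 1180 to 3153. Apart from the fibroblast list and that of further Schwann cell genes, 0 genes of any list were above the other 22 in either Trap library. For the fibroblast list too, the share of all genes above these ranges was not computed. The part of nerve roots or of any of these cells in the Prx values was not tested.

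Trap against Input sorted the 5 genes in both directions. With edgeR's quasi-likelihood test, 4 of the 5 were called at an adjusted p under 0.05, 2 higher and 2 lower in Trap, where 88.1% of the 15913 genes tested were called, 44.4% higher and 43.7% lower. A call in this comparison is thus what most genes showed. The median log2 difference of the 5 was 0.16, against 0.02 for all genes. With DESeq2's size factors the median of all genes moved to -0.08, and none of the 5 changed direction under that scaling.

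Cldn19 was at 0.704 ± 0.409 CPM in Trap (SD, n = 24) and 0.152 ± 0.244 in Input (n = 8), and rose by 2.24 ± 0.413 on the log2 scale (SE, adjusted p = 5.68e-06). The highest Input library, that with high Prx, overlapped the Trap range, and without the 3 libraries the difference was 3.00. Pmp2 was at 0.444 ± 0.249 and 0.166 ± 0.134 CPM and was higher in Trap by 1.45 ± 0.33 (adjusted p = 0.000126). The ranges overlapped, and without the 3 libraries Pmp2 did not pass the filter on low counts. With so few Input counts, Cldn19 and Pmp2 could pass that filter only through Trap. The filter thus favoured a call higher in Trap for both.

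Ncmap was at 0.166 ± 0.156 CPM in Trap and 1.18 ± 0.368 in Input, lower by a log2 difference of -2.76 ± 0.245 (adjusted p = 3.62e-14). Every Input library was above every Trap library, by a small margin (0.747 against 0.74 CPM). Ncmap could pass the filter on low counts only through Input, so a call lower in Trap was favoured for it. Pmp22 was at 58.3 ± 8.41 and 76.1 ± 3.58 CPM, a log2 difference of -0.39 ± 0.0636 (adjusted p = 7.58e-07), and a few Trap libraries reached into the Input range. Prx was at 1.03 ± 1.27 and 0.995 ± 1.46 CPM and was not called, at 0.16 ± 0.482 (adjusted p = 0.756). Without the 3 libraries Prx was at 0.667 ± 0.292 (n = 22) and 0.48 ± 0.116 CPM (n = 7), a log2 difference of 0.37 ± 0.212 (adjusted p = 0.106).

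**Figure D3:**
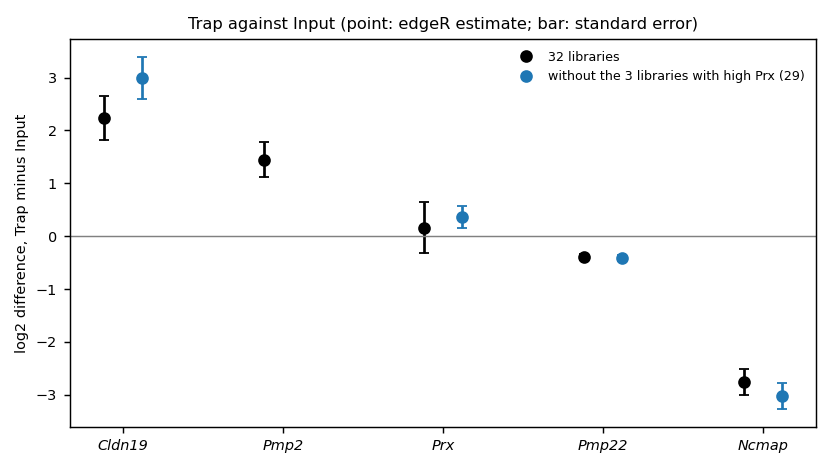
Log2 difference of Trap minus Input for the 5 genes, with the edgeR estimate as a point and its standard error as a bar, over 32 libraries (black) and over 29, without the 3 with high Prx (blue). Cldn19 and Pmp2 lie above 0, Pmp22 and Ncmap below it, and Prx at 0.16 with a bar that crosses it; Pmp2 was not tested over 29.

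The listed genes place these values. All 9 listed myelin genes shared with oligodendrocytes were lower in Trap, with a median of -2.60, among them Erbb3 (-3.91) and Mal (-2.60). Of 12 oligodendrocyte genes 10 were lower and 2 higher, the median being -2.06, with Opalin at -4.40 and Olig1 at 1.89. All 10 astrocyte genes were higher, with a median of 3.26, Aldh1l1 at 3.70. Of the other Schwann cell genes 10 of 13 were tested, 3 higher and 7 lower, with Adgrg6 at 3.03 and Drp2 at 1.60 among the higher and Scn7a at -3.36 among the lower. Of 9 genes of immature or repair Schwann cells tested, 4 were higher, Sox2 among them at 3.35, and 5 were lower, L1cam among them at -4.18. In the remaining lists, 3 of 10 fibroblast and meningeal genes, 1 of 4 perineurial, 0 of 8 endothelial, 1 of 7 afferent, 0 of 6 motor neuron and 7 of 7 blood cell genes were higher, and all others of those tested were lower.

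Whether fracture changed the 5 genes in Trap was tested against uninjured mice, averaged over the sexes. Ncmap did not pass the filter on low counts, and 0 of the other 4 genes were called at 3, 5 or 7 weeks by edgeR, with 0 at an unadjusted p under 0.05. DESeq2 called 0 of 4 at 5 and at 7 weeks, and 0 of 1 at 3 weeks, where it gave no adjusted p for the other 3. Of all 15380 genes tested, 0.111% were called at 3 weeks, 0% at 5 weeks and 0% at 7 weeks. The 3 comparisons share the uninjured libraries.

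Prx had the largest estimates. It was at 0.493 ± 0.178 CPM in uninjured mice (SD, n = 6), 0.76 ± 0.236 at 3 weeks, 1.34 ± 2.03 at 5 weeks and 1.53 ± 1.52 at 7 weeks. The log2 differences were 0.63 ± 0.743, 1.13 ± 0.733 and 1.40 ± 0.695 (SE, adjusted p = 0.9, 1 and 1). Without the 2 Trap libraries with high Prx they were 0.64 ± 0.305, 0.10 ± 0.35 and 0.97 ± 0.304, so that the 5 week value depended on 1 library. At 7 weeks the unadjusted p was then 0.00444 and the adjusted p 1, with the remaining 5 libraries at 0.421 to 1.46 CPM against 0.341 to 0.736 in uninjured mice, which overlap.

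Cldn19 ran from 0.413 to 0.831 CPM in uninjured mice (median 0.544), 0.192 to 1.07 at 3 weeks (0.643), 0.268 to 1.43 at 5 weeks (0.619) and 0.333 to 1.97 at 7 weeks (0.6). Pmp22 ran from 44.2 to 71.1 CPM (median 53.3), 44.3 to 63.9 (56.3), 55.5 to 77 (58.1) and 52.4 to 72.3 (60.5) in the same order. Pmp2 ran from 0.31 to 0.905 CPM (0.404), 0.121 to 0.483 (0.376), 0.109 to 0.543 (0.282) and 0.24 to 1.01 (0.534). The states overlapped for each of these genes. The log2 differences of Cldn19 were -0.05, 0.33 and 0.39, and without the 2 libraries -0.04, -0.07 and -0.01.

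**Figure D4:**
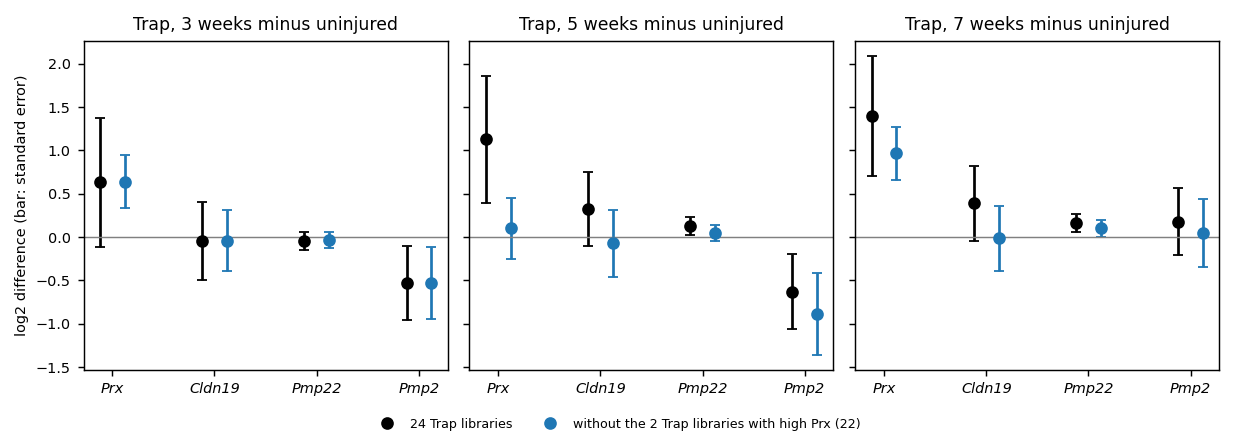
Log2 difference of each fracture time minus uninjured in Trap for the 4 genes tested, with the edgeR estimate as a point and its standard error as a bar, over 24 libraries (black) and 22, without the 2 with high Prx (blue). For Prx at 5 weeks the estimate is 1.13 with these libraries and 0.10 without them.

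The effect of fracture did not differ detectably between the sexes in Trap: 0 of the 4 genes and 0% of all genes were called at each of 3, 5 and 7 weeks by edgeR, with 0 of the 4 at an unadjusted p under 0.05 and 0 called by DESeq2. For Prx, males minus females gave -0.37 ± 1.51, 2.35 ± 1.46 and -1.60 ± 1.44, and the 5 week value was 0.29 without the 2 libraries. Averaged over the states, males against females in Trap gave 0 of 4 calls by edgeR and 0 of 3 by DESeq2, which gave no adjusted p for Pmp2, with 1 by edgeR at an unadjusted p under 0.05, where 0.195% of all genes were called. That gene was Pmp22, at 61.8 ± 7.84 CPM in males and 54.7 ± 7.67 in females (SD, n = 12 each), a log2 difference of 0.18 ± 0.0731 (adjusted p = 0.422). The ranges, 52.9 to 77 and 44.2 to 71.4 CPM, overlapped. No set name in the Trap column headers covers both sexes, so that sex and set cannot be told apart in this comparison.

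In Input only Prx, Pmp22 and Ncmap passed the filter, and 1 library for each sex and state left 3 residual degrees of freedom. By edgeR 0 of the 3 were called at 3, 5 or 7 weeks, with 0, 0 and 2 at an unadjusted p under 0.05, where 1.08%, 0.107% and 0.214% of all 16803 genes were called. DESeq2 called 0 of 3 at 7 weeks and 0 of 1 at 3 and at 5 weeks, where it gave no adjusted p for Prx and Ncmap. Prx at 7 weeks was higher by 2.29 ± 0.701 (adjusted p = 0.608), and the value was -0.10 without Input female 7 weeks replicate 1. Ncmap was at 1.39 CPM in females and 1.87 in males at 7 weeks against 0.898 and 0.996 in uninjured mice, a log2 difference of 0.79 ± 0.373 (adjusted p = 0.846).

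Males against females in Input gave 0 of 3 calls by edgeR and by DESeq2, with 1 at an unadjusted p under 0.05, where 46.2% of all genes were called. Prx was lower in males by a log2 difference of -1.55 ± 0.581 (adjusted p = 0.0595), and -0.05 without Input female 7 weeks replicate 1. The column headers give the male Input libraries a set name that the female ones lack, so that sex and set cannot be told apart there.

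Genes whose level went with the 5 were ranked by Pearson's r with their mean log2 CPM over the 24 Trap libraries, among 12052 genes. Dcn came first (r = 0.70), followed by Slc35b3 (0.61), Dync2li1 (0.61), Islr (0.59), Tgfbi (0.59), Pcolce (0.56), Cdyl2 (0.55), Magt1 (0.54), Dnajb13 (0.54) and Nars2 (0.54). The libraries belong to 8 groups of sex and state, which r does not take into account, so r is a description and has no p. Without the 2 libraries Dcn had r = 0.0099 and Tgfbi -0.024, and 0 of the 10 genes stayed among the first 10. Without Trap male 5 weeks replicate 3 alone, 3 of the 10 did.

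**Figure D5:**
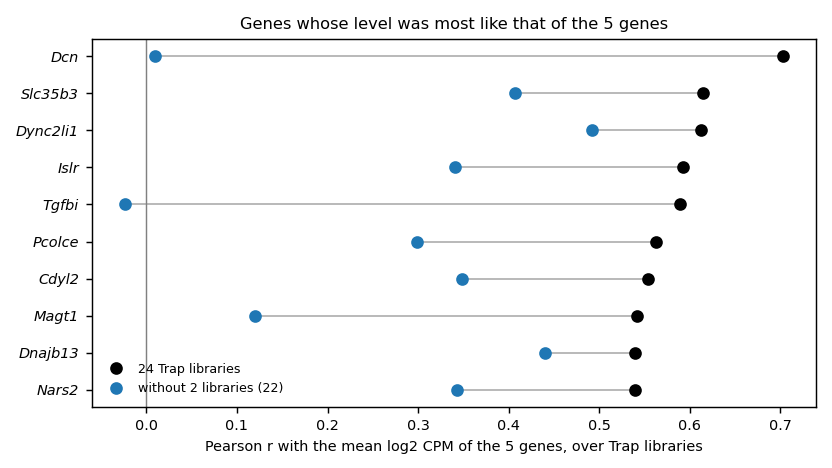
Pearson's r of the 10 genes most like the mean of the 5, over 24 Trap libraries (black) and 22, without the 2 with high Prx (blue). Dcn falls from 0.70 to 0.0099 and Dync2li1 from 0.61 to 0.49.

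Ranked singly, the 5 genes had different nearest genes. Prx was nearest to Dcn (r = 0.77 over 24 libraries, 0.20 over 22), Tgfbi (0.64 and 0.086) and Ptk2b (0.63 and 0.59). Pmp22 was nearest to Gstt3 (0.76 and 0.82), Gyg (0.75 and 0.71) and Cd9 (0.74 and 0.82), whose r held without the 2 libraries. Pmp2 was nearest to Prr11 (0.67 and 0.62), Ncmap to Sdc1 (0.56 and 0.66) and Cldn19 to Tgfbi (0.65 and 0.42). Among the 5 themselves, Prx and Cldn19 had r = 0.51 over 24 libraries and 0.02 over 22, and Pmp22 and Cldn19 had 0.06 and -0.38.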

How the data were processed

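Astrocyte-tagged ribosome pull-downs (Trap) and whole homogenates (Input) were sequenced as poly-A libraries, per the labels' protocols. The deposited table holds RSEM expected counts per gene; FastQC, Trim Galore, STAR, RSEM and GRCm38 are named, without versions, per the submitters' processing notes. Expected counts were rounded to whole numbers (6.21 to 8.53% of values in a library were not whole within 0.005), filtered with filterByExpr, scaled by TMM and tested with edgeR 4.0.16 (quasi-likelihood, robust) in R 4.3.3, with Benjamini-Hochberg adjustment over all genes tested. Trap against Input used 32 libraries with sex and state as terms, Trap used 24 with a mean per sex and state, and Input used 8 with sex and state. Alternatives were DESeq2 1.42.0, its size factors, no filter, a replicate block, and leaving out each library. Leaving out the 3 libraries with high Prx was chosen after seeing the data; they were first noticed by a value that is not reported here, and 2 genes were left out of the lists and the likeness ranking. Likeness used log2 CPM with a prior count of 2 and genes of at least 1 CPM on average. The 5 genes and the 11 lists (99 genes) were chosen with earlier results of these data known. Named were the 5 genes, up to 4 genes of each list with the smallest p in Trap against Input, the 10 nearest genes and the 3 nearest to each of the 5. Dhh, Sostdc1, Scn7a, Gldn, Gas2l3, Art3, Cdh19 and the fibroblast genes with values in the 3 libraries were named after their values were seen. The script was tested on simulated data, with changes only in genes of higher counts. Prx, Pmp2, Ncmap and Cldn19 had fewer counts in most libraries, so that test does not cover them.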

Additional observations from a re-analysis of the deposited data

Results flagged for a closer look

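In all, 6 of 25 groups held a library whose gap to its nearest neighbour was large for the range of the group. The groups were, for each gene, the 6 Trap libraries of each state and the 8 Input libraries. The rule flags about 1 in 20 groups where values are normally spread and groups independent. Here the 5 genes share libraries and most rest on few counts, so the 6 were not tested against that rate. Prx was at 5.48 CPM in Trap male 5 weeks replicate 3, where the next library at 5 weeks was at 0.651. Prx was at 4.55 CPM in Trap female 7 weeks replicate 1, where the next at 7 weeks was at 1.46. Prx was at 4.6 CPM in Input female 7 weeks replicate 1, where the next Input library was at 0.641. Cldn19 in that Input library was at 0.738 CPM against 0.178. In Trap male 5 weeks replicate 3, Pmp22 was at 77 CPM against 58.6 and Ncmap at 0.74 against 0.247. All 6 lie in the same 3 libraries, which were set apart by high Prx, so the Prx flags repeat that choice.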

How the results depend on the processing

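Of 1174 recomputed differences of single genes, 1108 kept their direction and side of the threshold (7 of them DESeq2 values with no adjusted p, so only their direction was compared), 61 changed sign with neither value called, and 5 became called, all Prx in Input. Those 5 were 3.16 at 7 weeks without the male 7 week library (adjusted p = 0.0169), and males against females at -1.95, -1.89, -1.94 and -1.89 without the female 5 week, female uninjured, male 5 week and male uninjured library. Leaving out each library, the number of the 5 genes called ran from 3 to 4 for Trap against Input, where Pmp2 passed the filter, and was called, in 28 of 32 fits, and from 0 to 1 for Input at 7 weeks and for Input males against females. With the replicate block (16 libraries), 2 of 3 genes tested were called in Trap against Input, since fewer genes passed the filter. The 2 were Pmp22 and Ncmap, both lower in Trap, and Prx was not called. Cldn19 and Pmp2, called higher over 32 libraries, did not pass the filter, so this fit did not test them. The block changed no other count, and in Trap a block for each number within each sex left every count at 0. Same-numbered Trap libraries of a sex correlated at a median r of 0.0605, with 7 of 36 pairs over 0.1. For other numbers of the same sex these were -0.0305 and 1 of 72. Taken over the other groups of both sexes, 11 of 24 libraries correlated best with their own number, although no set name covers both sexes. The column headers give most libraries of one number and sex a set name, without saying what a set shares. The main fits hold no term for the set, so they leave out any pairing within a set. The mark of 0.1 had no test behind it, and these correlations do not show that the libraries of a set are unpaired. Over all 15380 genes in Trap, the block within each sex did change the calls. They went from 17 to 80 at 3 weeks and from 30 to 13 for males against females. A set effect was not tested further. With the block within each sex, which leaves the sex difference to the libraries numbered 1, Pmp22 in males against females was -0.036. The 10 nearest genes shared 3 without Trap male 5 weeks replicate 3 and 0 without the 2 libraries with high Prx. Without those 2, Cldn19 was -0.071 at 5 weeks and -0.013 at 7 weeks, its sex differences were -0.54 and 0.11, and that of Pmp22 at 7 weeks was 0.050. With DESeq2 and with its size factors, Pmp22 in Input at 7 weeks was 0.0015 and 0.00124, and Prx in Input at 3 weeks was -0.10 and -0.00675.

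Leaving out each library, these uncalled log2 differences crossed 0. Prx ran from -0.19 to 0.97 in Trap against Input, -0.59 to 0.14 in Trap males against females, and -1.21 to 0.67, -1.58 to 1.39 and -0.10 to 3.16 in Input at 3, 5 and 7 weeks. Cldn19 ran from -0.24 to 0.12, -0.071 to 0.53 and -0.013 to 0.60 in Trap at 3, 5 and 7 weeks, and its sex differences from -0.54 to 0.70 at 5 weeks and -1.39 to 0.11 at 7 weeks. Ncmap ran from -0.33 to 0.19 and -0.18 to 0.80 in Input at 3 and 5 weeks and -0.050 to 0.35 between the sexes. Pmp2 ran from -0.066 to 0.76 and -0.30 to 0.42 in the sex differences at 3 and 7 weeks. Pmp22 ran from -0.090 to 0.043 in Trap at 3 weeks, -0.038 to 0.023, -0.086 to 0.032 and -0.11 to 0.10 in Input, and -0.0074 to 0.26, -0.21 to 0.11 and -0.21 to 0.066 in the sex differences. Where a cause is not given, it was not tested. Prx, Pmp2, Ncmap and Cldn19 rest on few counts outside the 3 libraries, so differences under their spread were not detectable at this depth.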
